A study of Mus musculus with 14 samples.

Results

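Differentiating C2C12 cells were compared after 7 days in 2 media that held the same hormone and drug cocktail and differed in their serum. C2C12 is an immortalized line of mouse myoblasts, the mononucleated precursors that stop dividing and fuse into contractile myotubes when serum is reduced. Medium DM3 held 2% horse serum and medium DM2 held 10% fetal calf serum (FCS). Both held a cocktail used to induce fat cells: 1 µg/ml insulin, 0.5 mM 3-isobutyl-1-methylxanthine (IBMX, which blocks phosphodiesterases and so raises cAMP), 0.5 µM dexamethasone (a glucocorticoid) and 2 µM rosiglitazone (an agonist of PPAR-gamma). The kind and the amount of serum changed together, so their parts cannot be told apart. The comparison rests on 4 of the 14 libraries of the series, chosen by the medium and day in their labels: 2 of DM3 and 2 of DM2. The other libraries are 2 of growing cells at day 0 in 20% FCS, 2 of DM1 (2% horse serum with no cocktail) at day 2 and 2 at day 7, and 2 each of DM2 and DM3 at day 2. No label tells whether the 2 libraries of a group are separate cultures. Each p-value is therefore set against the spread among libraries only, which may be technical.

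As background, myoblasts leave the cell cycle under Myod1 and Myog, switch on the proteins of the sarcomere, and change from a metabolism built for growth to that of muscle. Txnip is an arrestin-like protein that restrains glucose uptake, in part by taking the glucose transporter Slc2a1 (Glut1) from the cell surface, and its gene is known to rise with glucose. Klhl41 is a Kelch protein of the sarcomere that protects nebulin from aggregation. Cells that lack amino acids, oxygen or folding capacity in the endoplasmic reticulum (ER) raise sets of genes through Atf4, hypoxia-inducible factor (HIF) and the unfolded protein response. These sets overlap in part, so their lists are not independent of each other.

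The 4 libraries held 26557864 to 29784885 expected counts each, within the 21907617 to 29784885 of the series. Levels are CPM, the counts per 1000000 of the TMM-scaled library. A sum of 3 counts, taken here as the floor, is 0.113 to 0.127 CPM in these libraries. Rank correlation between the replicates was 0.9944 in DM3 and 0.9954 in DM2. Processed pseudogenes took 3.07 and 2.87% of counts in DM3 and 4.55 and 4.83% in DM2, and mRNA of the mitochondrial genome 5.44 and 5.01% in DM3 and 3.63 and 3.19% in DM2. With both classes and Gm42418 left out of the scaling and the test, 8737 genes passed between the media, against 8420 with them. In day 2 DM3 the replicates correlated less (0.9616). Without replicate 2 of that group, which enters the shared estimate of the spread, 8739 genes passed between the media at day 7.

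Of 15973 genes tested, 8420 passed an adjusted p of 0.05 (52.7%), with 4393 higher in DM3 (27.5%) and 4027 lower (25.2%). By at least 2-fold, 1979 genes were higher (12.4%) and 1660 lower (10.4%). These shares are the background against which the count of every list is read. Genes of the lists passed more often as a whole. Of the 701 tested, cell type markers left out, 83.3% passed, with 44.7% higher and 38.7% lower. A list near those shares does not stand out among the lists. The median of all tested genes was 0.00646 on the log2 scale.

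The 3 genes taken as markers of this contrast, Txnip, Klhl41 and Slc2a1, were named with earlier results of these data known, so their values describe the contrast. Txnip (chromosome 3, 96557957 to 96561883, GRCm38) stood at 464 and 466 CPM in DM3 and at 1.2 and 1.4 CPM in DM2. That is a 356-fold difference (log2 8.48 ± 0.204 SE, adjusted p = 9.33e-11). In DM2 at day 7 the gene was lower than in any other library: growing cells held 60.2 and 71.4 CPM, and the remaining 10 libraries 180.2 to 818 CPM. DM2 itself held 517 and 578 CPM at day 2. Late DM2 was thus the group with low Txnip, and the level in DM3 lay within that of the other differentiated libraries.

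Klhl41 (chromosome 2, 69670120 to 69684230) behaved in the opposite manner, with DM3 at day 7 standing apart. It held 674 and 653 CPM in DM3 and 7.23 and 6.07 CPM in DM2, a 99.7-fold difference (log2 6.64 ± 0.133, adjusted p = 5.74e-11). The 12 libraries outside DM3 at day 7 held 1.29 to 65.8 CPM. Slc2a1 (chromosome 4, 119108711 to 119137983) was at 141 and 144 CPM in DM3 and at 814 and 919.6 CPM in DM2, 6.09-fold lower in DM3 (log2 -2.61 ± 0.0968, adjusted p = 1.11e-09). All 12 libraries outside DM2 at day 7 held 81.6 to 189 CPM of it. Txnip and Slc2a1 thus set late DM2 apart from every other group, in opposite directions, and Klhl41 set late DM3 apart.

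**Figure D1:**
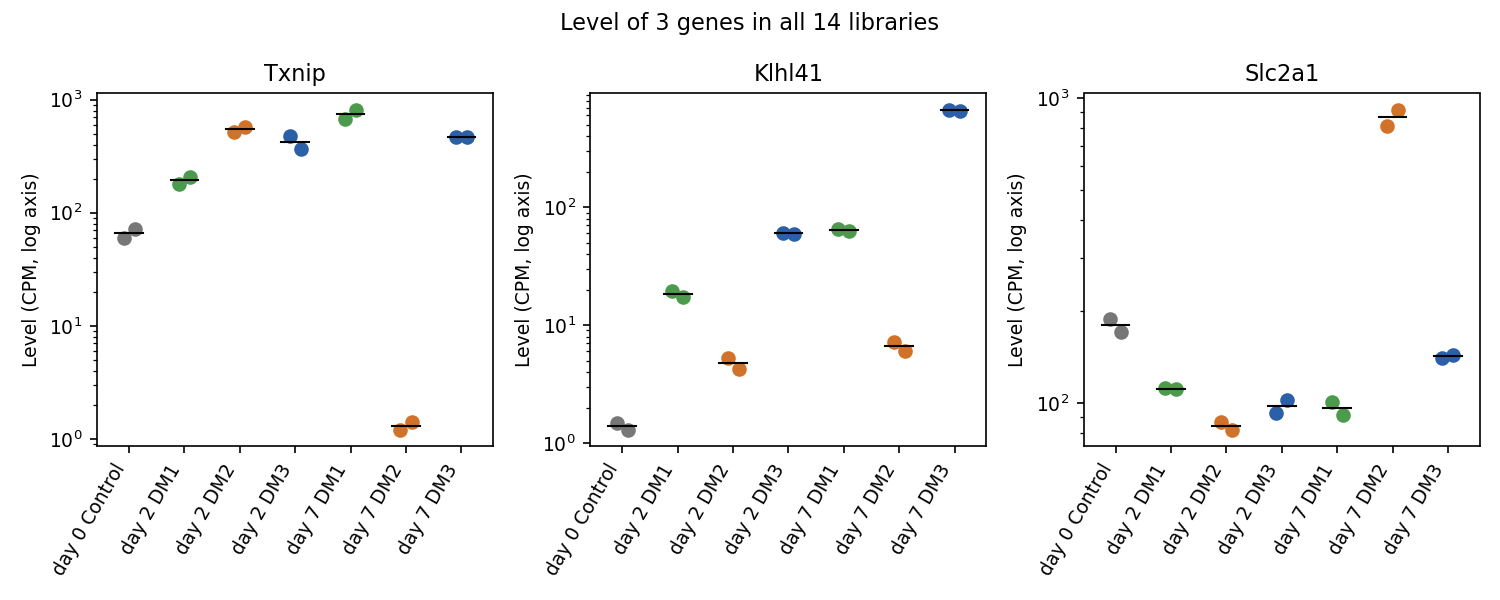
Level of Txnip, Klhl41 and Slc2a1 (CPM, log axis) in all 14 libraries by group; points are libraries and lines are group means. Txnip falls to 1.2 and 1.4 CPM and Slc2a1 reaches 814 and 919.6 CPM in day 7 DM2, while Klhl41 reaches 674 and 653 CPM in day 7 DM3.

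The sequences just before the starts of Txnip and Klhl41 are shown because these genes mark the contrast. They are the 250 bases before the start site in RefSeq (GRCm38.p6), with the motifs searched in capitals. In all, 6 motifs were searched on both strands of the window from 250 bases before to 50 after the start: the E boxes CACGTG and CACGAG, the muscle E boxes CAGCTG and CAGGTG, the ER stress element and the C/EBP-ATF element, both spelled out below.
Txnip, chr3:96557707-96557956, + strand: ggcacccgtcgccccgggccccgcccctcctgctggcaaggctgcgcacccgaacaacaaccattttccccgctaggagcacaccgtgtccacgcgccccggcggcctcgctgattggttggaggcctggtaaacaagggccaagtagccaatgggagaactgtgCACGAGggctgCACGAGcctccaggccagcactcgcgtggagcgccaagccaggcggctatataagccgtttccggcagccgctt
Klhl41, chr2:69669870-69670119, + strand: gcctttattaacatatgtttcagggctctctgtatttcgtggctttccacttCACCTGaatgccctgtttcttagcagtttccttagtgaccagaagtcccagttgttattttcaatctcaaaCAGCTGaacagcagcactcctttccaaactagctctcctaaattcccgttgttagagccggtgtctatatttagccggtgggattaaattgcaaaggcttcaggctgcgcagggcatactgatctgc
In Txnip the capitals are 2 copies of CACGAG, at -85 and -74 from the start site. A pair of E boxes of this sort is the form of the carbohydrate response element for which the Txnip promoter is known. CACGAG was found in 7.47% of the 27025 RefSeq promoters of the table. In Klhl41 the capitals are CAGGTG, read on the other strand, at -198, and CAGCTG at -127, letters of the E boxes that myogenic factors such as Myod1 bind. CAGGTG was found in 22.6% and CAGCTG in 18.3% of all promoters, so these matches are common and describe the window only.

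Muscle genes were higher in DM3 across the sarcomere. Of 74 genes in 3 lists (thick filament and M-band, thin filament, and Z-disc, titin and costamere), 71 were tested, 64 were higher and 1 was lower. Acta1, skeletal alpha-actin, was at 13398 and 12529 CPM in DM3 and 243 and 247 CPM in DM2 (52.9-fold, adjusted p = 1.11e-09). In the 12 libraries outside DM3 at day 7, Acta1 did not exceed 561 CPM. In bulk RNA, more muscle-like cells and more of the transcript per cell cannot be told apart.

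In the thick filament list, 18 of 21 tested genes were higher and none was lower, with a median log2 difference of 4.38. Myh3, embryonic myosin heavy chain, held 3128 and 3273 CPM in DM3 and 86.6 and 74.6 CPM in DM2 (39.7-fold, adjusted p = 4.01e-09). The regulatory light chain Mylpf was at 3593 and 3096 CPM against 134 and 135 CPM, and myosin binding protein H (Mybph) at 2125 and 2039 CPM against 58.4 and 54 CPM. Myom1, which crosslinks myosin in the M-band, was 27.9-fold higher. Myh1 (2.96 and 3.53 CPM against 1.43 and 1.32 CPM) and Myh8 (6.3 and 6.49 CPM against 0.903 and 0.506 CPM), adult fast and perinatal forms, did not pass the test. Both passed when only the 4 libraries were fitted (adjusted p = 0.000126 and 5.82e-12) and without replicate 2 of DM3 at day 2 (adjusted p = 0.0427 and 0.0438). Per kb of exon, Myh3 made up 98.7 and 98.8% of the 7 sarcomeric heavy chains in DM3, 93.5 and 93.2% in DM2, and 83.6 and 84.9% in DM1 at day 7. The embryonic form led in all 6 libraries, and by the most in DM3.

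In the thin filament list, 17 of 20 tested genes were higher, 1 was lower, and the median log2 difference was 4.51. Troponin genes of both fibre classes were higher: the fast Tnni2 by 34.1-fold and Tnnt3 by 20.9-fold, the slow Tnni1 by 24.2-fold and Tnnt1 by 21.1-fold. Lmod2, which nucleates actin filaments, held 109 and 108 CPM in DM3 and 1.99 and 2.1 CPM in DM2. Nebulin (Neb), the ruler of the thin filament, held 646 and 879 CPM against 30.1 and 25.8 CPM. The member that was lower, Tpm3, a tropomyosin also made in non-muscle cells, stood at 197 and 196 CPM in DM3 and 328 and 366 CPM in DM2. The other tropomyosins, Tpm1 and Tpm2, were 3.95-fold and 6.09-fold higher.

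In the Z-disc, titin and costamere list, 29 of 30 tested genes were higher and none was lower (median log2 difference 3.69). Titin (Ttn) held 1725 and 2451 CPM in DM3 and 82.8 and 64.5 CPM in DM2, and the stretch-responsive Ankrd2 232 and 188 CPM against 3.12 and 2.61 CPM. Flnc (1.56-fold) and Cryab (1.32-fold, adjusted p = 0.0259), already high in DM2, differed least, and Cryab did not pass without replicate 1 or 2 of DM3 or replicate 1 of DM2 (adjusted p = 0.105, 0.067 and 0.246). Pdlim5, at 179 and 171 CPM against 184 and 168 CPM, was the tested gene of the list that did not pass.

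Both libraries of DM3 at day 7 lay above all other 12 libraries for 60 of the 71 tested sarcomere genes, against 12.5% of all genes tested. Without replicate 2 of DM3 at day 2 among the others, this held for 61 of them, against 13.2% of all genes. Most sarcomere genes were thus highest in late DM3 in the series, and above DM1, the horse serum medium with no cocktail. Among the exceptions were Myh1 and Myh8, which reached 8.73 and 7.95 CPM in other libraries, and Pdlim5, which reached 232 CPM. Tpm3, lower in DM3, held 248 CPM or more in all libraries outside DM3 at day 7. Both DM2 libraries lay below all others for 15 of the 71, against 14.5% of all genes. These were 12 of 30 in the Z-disc, titin and costamere list, 1 of 21 in the thick filament list and 2 of 20 in the thin filament list. For Ttn the libraries outside DM2 at day 7 held 146 CPM or more.

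Most regulators of the muscle program were higher in DM3 as well. Of 18 myogenic regulators tested, 16 were higher and 1 was lower (median log2 difference 2.03). Both DM3 libraries lay above all other 12 for 7 of the 18, against 12.5% of all tested genes. Both DM2 libraries lay below all others for 7, against 14.5%. Myog held 1110 and 995 CPM in DM3 and 32 and 32.2 CPM in DM2 (32.8-fold, adjusted p = 3.6e-10), while Myod1, which acts before it, held 72.8 and 64.7 CPM against 16.1 and 20.4 CPM (3.76-fold). The libraries outside DM3 at day 7 held 16.1 to 146 CPM of Myod1, a range that includes DM3. Mef2c, a partner of the myogenic factors, was 9.72-fold, the muscle methyltransferase Smyd1 25.2-fold and the splicing factor Rbm24 30.8-fold higher. Eya1, a cofactor of Six4, was the exception at 2.41-fold lower, although Six4 itself was 4.81-fold higher. Rbm20 did not pass.

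Of the fusion and recognition genes, 11 of 17 tested were higher and 4 were lower. The 2 membrane proteins that drive fusion differed unequally: myomaker (Tmem8c) held 422 and 389 CPM against 31.1 and 32.8 CPM (12.7-fold), and myomixer (Gm7325 in the table) 356 and 326 CPM against 5.76 and 6.38 CPM (56.1-fold). The guanine exchange factors Dock1 and Dock5 and the ferlin Myof were lower by 1.51-fold, 1.6-fold and 1.85-fold. Dysferlin (Dysf), the ferlin of mature membrane repair, was 5.79-fold higher.

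In the Kelch-BTB family, 10 of 18 tested genes were higher, none was lower, and 8 did not pass. The 6 that were at least 2-fold higher included Klhl41 and 3 more members of striated muscle. Klhl40, a relative of Klhl41 that stabilizes nebulin and leiomodin, held 63.2 and 63.1 CPM against 1.69 and 2.06 CPM (33.6-fold). Klhl31 was 9.78-fold and Klhl30 8.45-fold higher. The other 2, not known as muscle genes, were Klhl13, at 6.3 and 6.86 CPM against 0.263 and 0.506 CPM (16.9-fold), and Klhl5 (3.22-fold). Keap1, the Kelch adaptor that degrades Nrf2, stood at 44.3 and 46.4 CPM against 41.7 and 45.7 CPM and did not pass.

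Of 23 tested genes of excitation-contraction coupling, 19 were higher and 2 were lower (median log2 difference 2.25). The calcium store protein Casq2 held 1147 and 1072 CPM in DM3 and 18.8 and 16.7 CPM in DM2 (62.5-fold). The release channel Ryr1 was 18.6-fold, its voltage sensor Cacna1s 14.5-fold and the muscle sodium channel Scn4a 48-fold higher. The fast calcium pump Atp2a1 was 23.4-fold higher and the widely expressed Atp2a2 1.46-fold. Itpr1, an inositol trisphosphate receptor of calcium stores, was 2.06-fold lower. The other lower member, Asph (1.16-fold, adjusted p = 0.0466), did not pass without replicate 1 or 2 of DM3 or replicate 1 of DM2 (adjusted p = 0.216, 0.0762 and 0.313), or when only the 4 libraries were fitted (adjusted p = 0.056).

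At the neuromuscular junction, 9 of 13 tested genes were higher and 2 were lower. Subunits of the acetylcholine receptor did not move together. The fetal gamma subunit (Chrng) was 13.6-fold higher, at 249 and 223 CPM against 17.2 and 17.7 CPM. The alpha subunit (Chrna1) was 1.62-fold higher, and the delta subunit (Chrnd) was 1.49-fold lower, at 109 and 106 CPM against 159.8 and 161 CPM. Muscle energy enzymes were higher for 15 of 16 tested genes. Ckm, muscle creatine kinase, held 207 and 191 CPM against 11.4 and 12.2 CPM (16.9-fold), myoglobin (Mb) was 19.2-fold and glycogen phosphorylase (Pygm) 20.9-fold higher. Glycogen synthase (Gys1) was the member that was lower, by 1.46-fold.

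**Figure D2:**
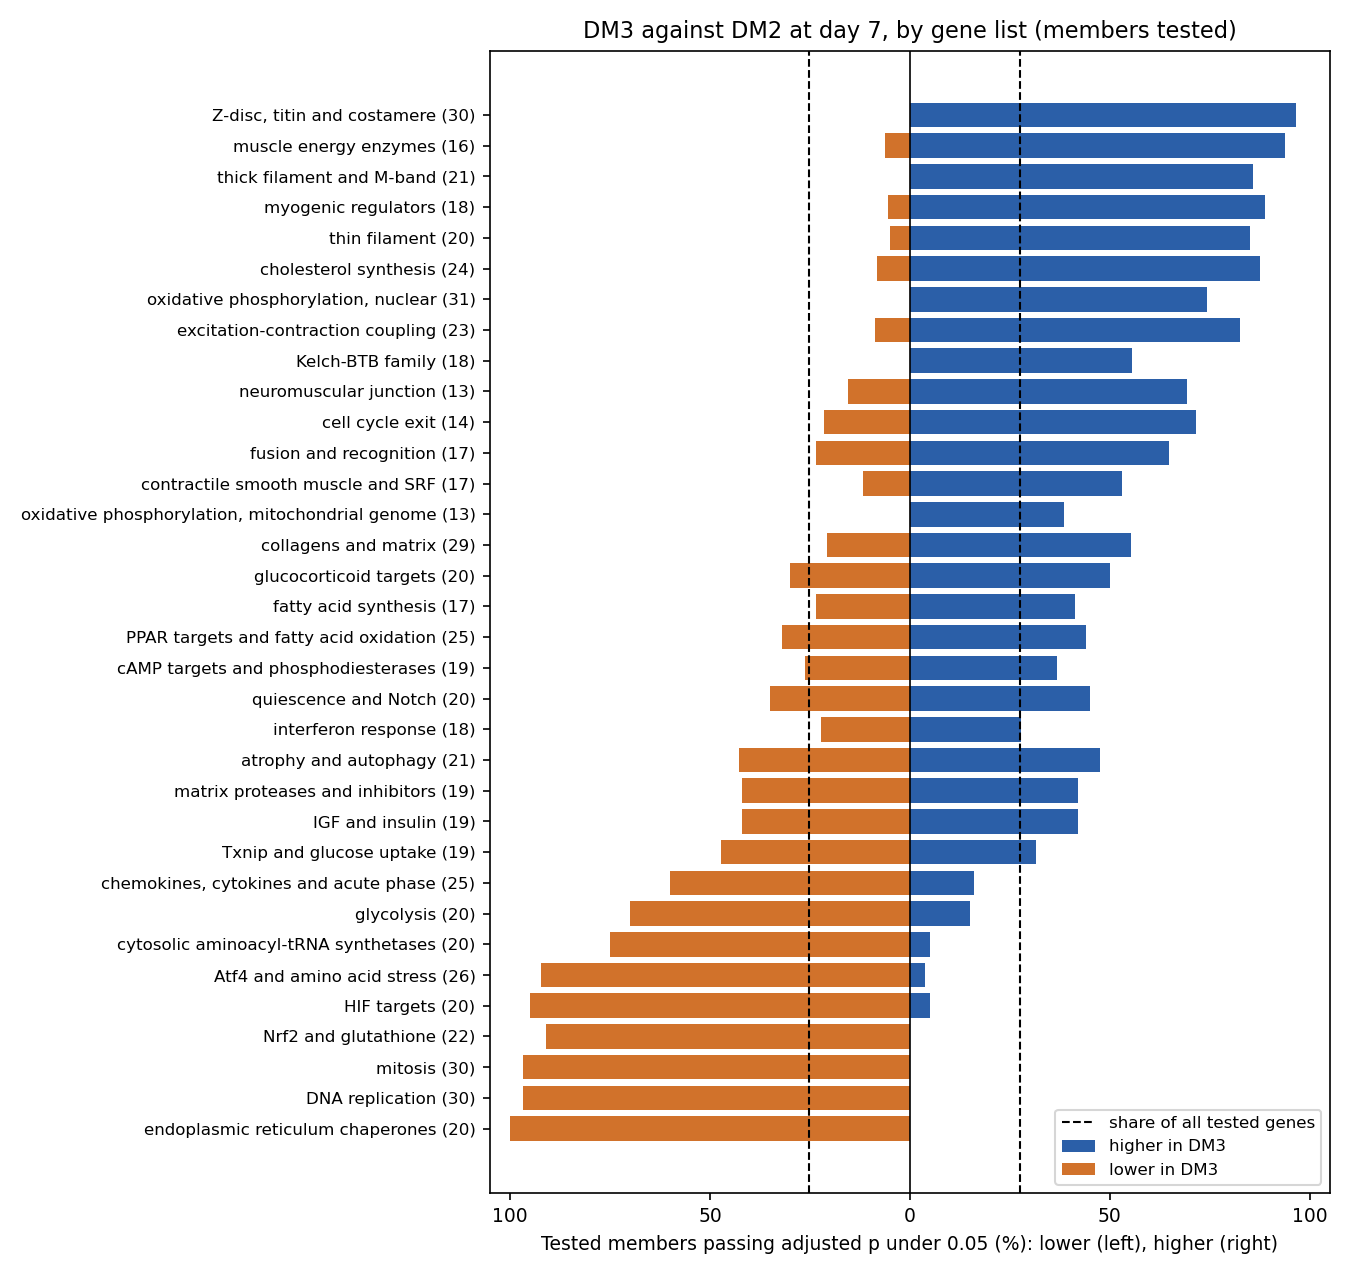
Percentage of tested members of each of 34 gene lists that were higher (right, blue) or lower (left, orange) in DM3 than in DM2 at day 7 at an adjusted p under 0.05; the number of members tested follows each name. Dashed lines mark the shares of all tested genes, 27.5% higher and 25.2% lower; sarcomere lists reach far to the right, and ER chaperones, replication, mitosis, HIF, Atf4 and Nrf2 lists far to the left.

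Sugar metabolism differed in form as well as in amount. Of 20 genes of glycolysis and lactate export, 14 were lower in DM3 and 3 were higher (median log2 difference -1.04). This list leaves out the muscle forms Pgam2 and Eno3, both higher and described below, so the count depends in part on how the lists were made. Pgam2 was counted with the muscle energy enzymes. Hexokinase 2 (Hk2) held 229 and 249 CPM in DM3 and 731 and 807 CPM in DM2 (3.22-fold lower), and the lactate exporter Slc16a3 was 3.8-fold lower. Pyruvate kinase (Pkm) was 2.59-fold and lactate dehydrogenase A (Ldha) 2.55-fold lower. The muscle form of phosphofructokinase went the other way: Pfkm held 378 and 378 CPM in DM3 and 55.4 and 57.7 CPM in DM2 (6.68-fold higher, adjusted p = 1.11e-09), while the liver form Pfkl was 3.18-fold and the platelet form Pfkp 2.08-fold lower. Pfkfb3 and Pfkfb4, which set the activator of phosphofructokinase, were 2.06-fold and 1.81-fold higher.

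The same split by tissue form was seen at 2 further steps, chosen because they have a muscle form and a counterpart. It did not hold for every enzyme used by muscle: Hk2, Gys1 and Ldha, given above, were lower in DM3. The muscle aldolase Aldoa reached 2724 CPM in DM2 at day 7 and did not exceed 1658 CPM in the libraries outside that group. For lactate dehydrogenase the split thus ran the other way, as Ldhb reached 21.3 CPM in DM3 and did not exceed 16.8 CPM outside DM3 at day 7. The muscle mutase Pgam2 was 27.4-fold higher and its counterpart Pgam1 3.23-fold lower. The muscle enolase Eno3 held 471 and 441 CPM against 44.5 and 47.8 CPM (9.89-fold higher). Its counterpart Eno1 held 498 and 476 CPM against 1088 and 1278 CPM and did not pass (adjusted p = 0.0744), but it passed without replicate 2 of DM3 at day 2 (adjusted p = 0.0273). Gapdh did not pass either (adjusted p = 0.79), and passed as lower when only the 4 libraries were fitted (log2 -0.37, adjusted p = 0.0043). Both have processed pseudogenes with near-identical sequence, to which the counting could assign reads, so their values are uncertain.

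Among 19 tested genes of glucose uptake and the Txnip family, 6 were higher and 9 were lower. The insulin-responsive transporter Slc2a4 (Glut4) was higher at a low level, 3.93 and 4.07 CPM against 0.151 and 0.389 CPM (14.6-fold, and 25.8-fold without replicate 2 of DM2). Per kb of exon, Slc2a1 was 82.7 and 83.5% of the 5 glucose transporters compared in DM3 and 97.6% in both DM2 libraries. The relatives of Txnip that were tested differed far less than Txnip did: Arrdc2 was 3-fold higher and Arrdc3 2.11-fold lower. Arrdc4, a further relative, was not tested. Mlx, the partner of the glucose-sensing factors that act on Txnip, was 1.5-fold lower. Of those factors, Mlxip did not pass (43.3 and 51 CPM against 46.6 and 44 CPM) and Mlxipl was not tested.

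**Figure D3:**
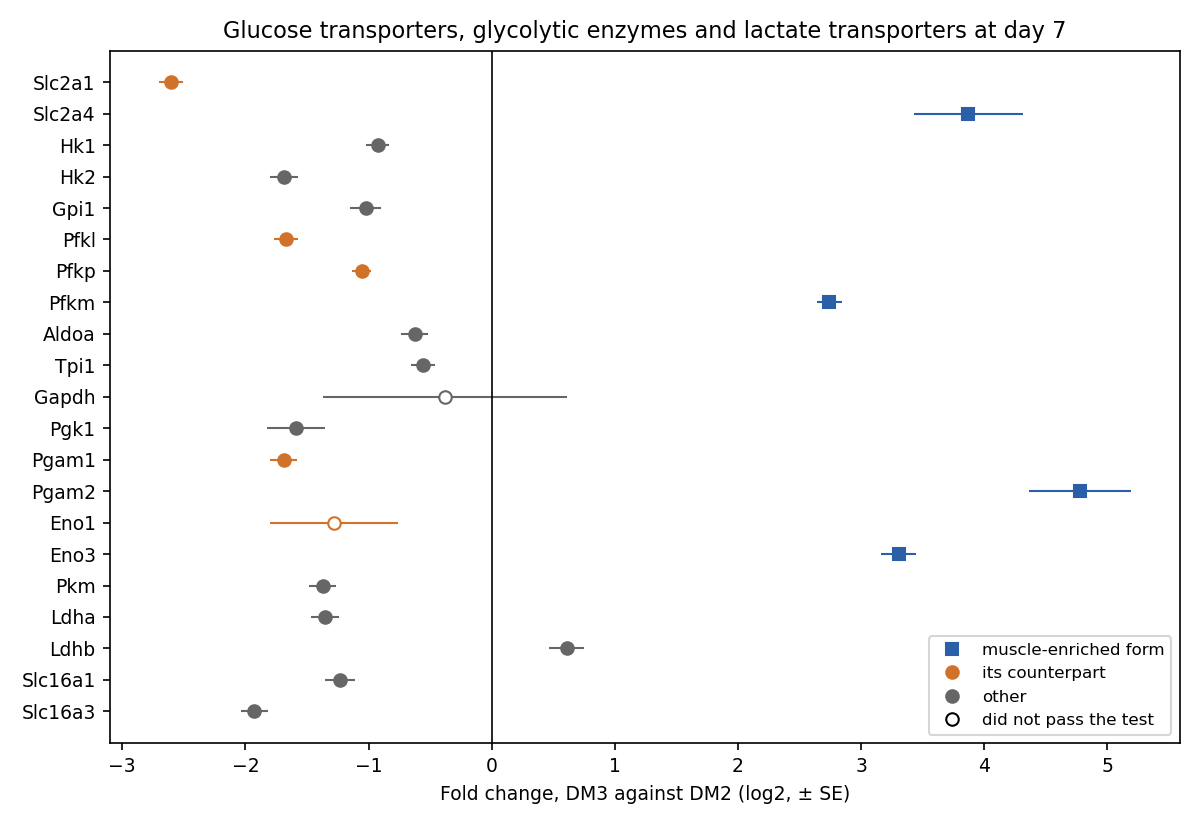
Fold change of DM3 against DM2 at day 7 (log2, ± SE) for glucose transporters, glycolytic enzymes and lactate transporters. Squares are muscle-enriched forms chosen beside a counterpart, and open symbols did not pass the test. Hk2, Aldoa and Ldha, also used by muscle, are drawn among the other genes. Slc2a4, Pfkm, Pgam2 and Eno3 lie to the right of 0, and their counterparts lie to the left, Eno1 without passing the test.

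HIF target genes were lower in DM3 for 19 of 20 members (median log2 difference -1.24). Ndrg1, a stress-induced gene, held 151 and 184 CPM in DM3 and 4500.2 and 4945 CPM in DM2 (28.2-fold lower, adjusted p = 7.67e-10). Ero1l, the ER oxidase, held 92.7 and 100.3 CPM against 1667 and 1586 CPM (16.9-fold lower). Carbonic anhydrase 9 (Car9), a textbook marker of low oxygen, held 7.23 and 12.8 CPM against 112 and 117 CPM (11.4-fold lower). Vegfa was 1.85-fold lower. Ddit4, which is also induced by glucocorticoids, was the member that was higher, by 1.56-fold. In DM2 at day 7, 16 of the 20 were above all other 12 libraries, against 14.5% of all tested genes. For Ndrg1 those others held 90.9 to 503 CPM.

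ER chaperones and quality control genes were lower in DM3 for all 20 tested members of 21 (median log2 difference -1.43). The chaperone Hspa5 (BiP) held 861 and 883 CPM in DM3 and 3751 and 3096 CPM in DM2 (3.93-fold lower, log2 -1.97 ± 0.139, adjusted p = 1.88e-07). Calreticulin (Calr) held 646 and 622 CPM against 3205 and 2778 CPM (4.72-fold). The disulfide isomerase Pdia4 was 4.97-fold and the cochaperone Sdf2l1 8.91-fold lower, and Xbp1, a factor that drives such genes, 1.53-fold lower. Both DM2 libraries of day 7 were above all other 12 for 20 of the 20, against 14.5% of all tested genes. The other 12 libraries held 497 to 1196 CPM of Hspa5, a range that includes DM3.

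The ER stress element, CCAAT followed by 9 bases of any kind and then CCACG, is shown because it was common in these promoters. It was found in 9 of the 19 chaperone genes with a RefSeq promoter (47.4%), in 37 of all 27025 promoters (0.137%) and in 17 of the 10390 tested genes with a promoter (0.164%). For each gene 1 match follows, with 5 bases on each side, on the strand of the motif and with its fixed letters in capitals.
Hspa5, chr2:34772020-34772048, + strand: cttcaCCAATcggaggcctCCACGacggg
Hsp90b1, chr10:86705528-86705556, + strand: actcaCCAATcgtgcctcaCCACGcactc
Calr, chr8:84847070-84847098, + strand: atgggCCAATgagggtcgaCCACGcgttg
Canx, chr11:50325795-50325823, - strand: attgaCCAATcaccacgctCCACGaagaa
Pdia6, chr12:17266486-17266514, + strand: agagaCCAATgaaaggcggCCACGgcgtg
Dnajc3, chr14:118937822-118937850, + strand: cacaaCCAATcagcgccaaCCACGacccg
Creld2, chr15:88819515-88819543, - strand: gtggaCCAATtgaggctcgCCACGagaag
Syvn1, chr19:6046527-6046555, + strand: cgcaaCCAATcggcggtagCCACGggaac
Derl3, chr10:75893237-75893265, - strand: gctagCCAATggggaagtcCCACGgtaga
Derl3 was at 0 in all 4 libraries and was not tested, and the other 8 genes were lower in DM3, from Canx (1.6-fold) to Calr (4.72-fold). Of the 9 tested genes with the motif outside the list, 4 were lower, 2 were higher and 3 did not pass. A match is a description of the window and not a measured binding site.

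Genes of amino acid stress under Atf4 were lower in DM3 for 24 of 26 members (median log2 difference -1.83). Ddit3 (Chop), a factor of prolonged stress, held 39.9 and 42.7 CPM in DM3 and 207 and 233 CPM in DM2 (5.31-fold lower, log2 -2.41 ± 0.0943, adjusted p = 1.52e-09). The pseudokinase Trib3 held 15.9 and 21 CPM against 204 and 222 CPM (11.6-fold). The cystine transporter Slc7a11 held 1.94 and 3.45 CPM against 118 and 94.5 CPM (39.2-fold), and the mitochondrial folate enzyme Aldh1l2 62.2 and 86.7 CPM against 1371 and 1269 CPM (17.7-fold). Genes of serine synthesis were lower together: Phgdh by 3.47-fold, Psat1 by 3.73-fold and Psph by 6.55-fold. Atf4 itself was 2.61-fold lower. Fgf21, a secreted factor, was the member that was higher, at 14.3 and 13.8 CPM against 4.29 and 4.28 CPM. Cebpb did not pass.

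Of the cytosolic aminoacyl-tRNA synthetases, which load amino acids onto tRNA, 15 of 20 were lower and 1 was higher (median log2 difference -0.906). Wars was 3.9-fold and Aars 3.06-fold lower, and Dars was 1.2-fold higher (adjusted p = 0.0364), a call lost without replicate 1 of DM3 (adjusted p = 0.271) or replicate 2 of DM2 (adjusted p = 0.26). Kars, Mars, Qars and Farsa did not pass. The C/EBP-ATF element, TGATG followed by any base and then AA, was found in 8 of 24 Atf4-list promoters (33.3%) and 5 of 12 synthetase promoters (41.7%), against 4.51% of all promoters and 2.81% of those of tested genes. Matches are shown for 5 members that were lower and for Fgf21, the member that was higher, again with 5 bases on each side and fixed letters in capitals.
Trib3, chr2:152344034-152344051, + strand: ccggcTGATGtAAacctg
Asns, chr6:7693220-7693237, - strand: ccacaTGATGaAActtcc
Chac1, chr2:119351044-119351061, - strand: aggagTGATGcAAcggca
Slc7a11, chr3:50443667-50443684, - strand: gtggcTGATGcAAacctg
Aars, chr8:111033725-111033742, - strand: tcggcTGATGcAAtgctc
Fgf21, chr7:45615617-45615634, + strand: acggaTGATGcAAtgggg
The same letters thus stood in the windows of genes that were lower and of a gene that was higher. Ddit3 held none of the 6 motifs in its window. In DM2 at day 7, 21 of the 26 Atf4-list genes and 10 of the 20 synthetases were above all other 12 libraries, against 14.5% of all tested genes. The other 12 libraries held 11.7 to 42.7 CPM of Ddit3 and 3.35 to 32.7 CPM of Trib3.

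Antioxidant and glutathione genes under Nrf2 were lower in DM3 for 20 of 22 members, and none was higher (median log2 difference -1.56). Heme oxygenase (Hmox1) held 40.8 and 39.1 CPM against 208 and 241 CPM (5.62-fold), and sulfiredoxin (Srxn1) was 6.9-fold lower. The glutathione transferase Gsta4 held 56.3 and 65 CPM against 772 and 854 CPM (13.4-fold lower). The pentose phosphate enzymes G6pdx and Pgd, which make NADPH, were 3.43-fold and 3.19-fold lower. Gpx1 and Gpx3 did not pass. The lists share some genes. As examples, Slc7a11 counts in the Atf4 and the Nrf2 list, and Txnrd1 in the Nrf2 and the glucose uptake list.

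**Figure D4:**
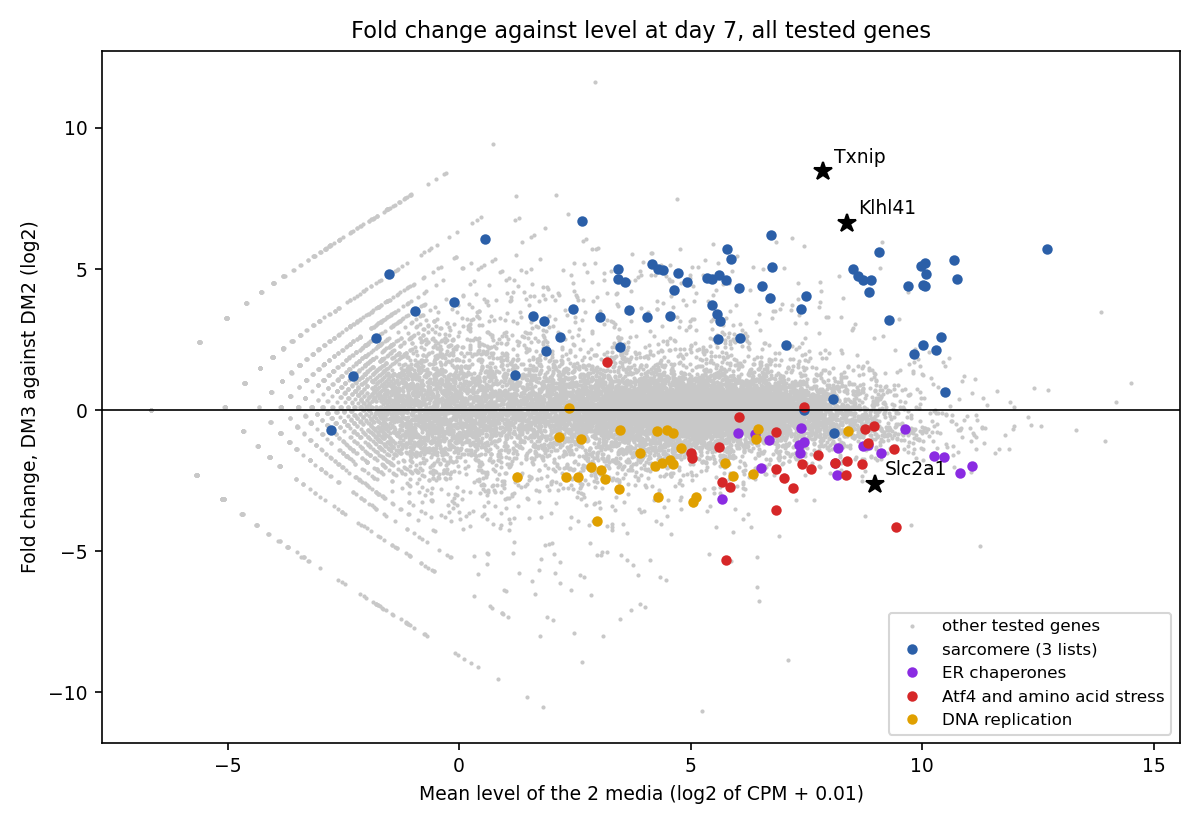
Fold change of DM3 against DM2 at day 7 (log2) against mean level (log2 of CPM + 0.01) for the 15973 tested genes; coloured points are members of the lists named in the key and stars mark Txnip, Klhl41 and Slc2a1. Sarcomere genes (64 of 71 higher) lie above 0 and ER chaperones (20 of 20 lower), Atf4 and replication genes below it.

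Cell cycle genes were lower in DM3. Of 60 genes of DNA replication and mitosis, 58 were lower and none was higher. Replication genes had a median log2 difference of -1.9: the helicase subunit Mcm5 held 5.96 and 6.73 CPM in DM3 and 57.7 and 62.6 CPM in DM2 (9.47-fold), and the licensing factor Cdc6 0.845 and 1.11 CPM against 15.3 and 14.4 CPM (15.1-fold). Mitosis genes had a smaller median of -1.13, and Top2a held 95.2 and 109 CPM against 266 and 232 CPM (2.44-fold). Ccne1 and Cenpa did not pass. Growing cells held 188 and 177 CPM of Mcm5, so DM2 lay between growing cells and DM3. Both DM3 libraries were below all other 12 for 28 of 30 mitosis genes but 7 of 30 replication genes, against 10.7% of all tested genes.

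Of 14 tested genes of cell cycle exit, 10 were higher and 3 were lower. The D cyclins split: Ccnd1 (25.9 and 28.5 CPM against 109.6 and 125 CPM) and Ccnd2 were 4.32-fold and 4.33-fold lower, and Ccnd3, the D cyclin of differentiated muscle, was 2.71-fold higher. Rb1 was 2.74-fold higher and its relative Rbl1 2.86-fold lower. The inhibitor Cdkn1a (p21) was 1.79-fold higher.

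Imprinted growth genes showed some of the largest differences in the IGF and insulin list, where 8 of 19 tested genes were higher and 8 were lower. Igf2 held 169 and 154 CPM in DM3 and 15.6 and 15.1 CPM in DM2 (10.5-fold, log2 3.40 ± 0.101, adjusted p = 2.61e-10). H19, the noncoding RNA of the same imprinted locus, held 28761 and 26055 CPM against 2301 and 2672 CPM (11-fold). In the other libraries H19 did not exceed 6373 CPM and Igf2 did not exceed 15.6 CPM. The binding protein Igfbp3 was 11.8-fold lower and the receptor gene Igf2r 2.07-fold higher, while Igf1r did not pass.

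Targets of the 3 cocktail drugs, which both media held, moved in mixed directions. Of 20 glucocorticoid targets, 10 were higher and 6 were lower. Tsc22d3 (Gilz) held 1113 and 1108 CPM against 232 and 271 CPM (4.42-fold higher), and Fkbp5 was 1.28-fold higher, but Klf15 was 10.9-fold and Sgk1 2-fold lower. Of 19 tested cAMP targets and phosphodiesterases, 7 were higher and 5 were lower, or 3 lower without replicate 1 of DM2. Sik1 was 2.96-fold and Nr4a1 4.41-fold higher, and Ppargc1a, the coactivator of mitochondrial genes, held 4.48 and 4.76 CPM against 25.8 and 23.3 CPM (5.31-fold lower). Of 25 tested PPAR targets and fatty acid oxidation genes, 11 were higher and 8 were lower. Oxidation enzymes were higher by small factors (Acadvl 1.68-fold, Acadm 1.63-fold, Cpt1a 1.73-fold), the uncoupling protein Ucp3 was at 6.09 and 5.42 CPM against 0.0753 and 0.0778 CPM (a count ratio of 75.1 with only 4 counts in DM2, exact binomial 95% interval 29 to 278), and the lipid droplet protein Plin2 was 3.18-fold and the fatty acid carrier Fabp4 7.18-fold lower. Pparg did not pass, at 12.3 and 12.6 CPM against 9.67 and 12.3 CPM.

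Lipid synthesis split by branch. Of 24 cholesterol genes, 21 were higher and 2 were lower (median log2 difference 0.722). Stard4, which carries sterols, held 117 and 121 CPM against 33 and 30.4 CPM (3.76-fold), and Hmgcs1, an early enzyme of the pathway, was 3.4-fold higher. Sqle and Lss, which catalyse consecutive steps, were the exceptions at 1.9-fold and 1.64-fold lower. DM2 at day 7 was below all other 12 libraries for 16 of the 24, against 14.5% of all tested genes, and Stard4 held 114 to 185 CPM in those 12, a range that includes DM3. Of 17 fatty acid synthesis genes, 7 were higher and 4 were lower; Scd1 was 2.19-fold higher, and Fasn and Srebf1 did not pass.

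Nuclear genes of the respiratory chain were higher for 23 of 31 members and lower for none, by 1.19-fold to 1.78-fold (median log2 difference 0.406). Of 13 genes of the mitochondrial genome, 5 were higher and none was lower, with mt-Co1 at 32565 and 29155 CPM against 16034 and 15363 CPM (1.97-fold). Without replicate 1 of DM3, and likewise without replicate 2 of DM2, 3 of them were higher, while DESeq2 called 1 lower and a fit of only the 4 libraries called 2 lower.

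Collagens and matrix proteins were higher for 16 of 29 tested genes and lower for 6, or lower for 3 without replicate 2 of DM2. Thbs1 (thrombospondin) held 1472 and 1683 CPM against 83.7 and 88 CPM (18.4-fold), periostin (Postn) 15.1 and 14.7 CPM against 0.376 and 0.428 CPM (36.7-fold), and Col1a1 was 5.98-fold higher. Fibronectin (Fn1) was 1.85-fold lower. DM2 was below all other libraries for 12 of the 29, against 14.5% of all tested genes. Matrix proteases and inhibitors were even, with 8 of 19 tested genes higher and 8 lower: Adamts5 was 5.44-fold higher, and Mmp3 was at 0.507 and 0.411 CPM against 16.4 and 16 CPM (35-fold lower). Of 17 tested smooth muscle and SRF genes, 9 were higher and 2 were lower. Ctgf was 4.04-fold and Acta2 3.28-fold higher, and filamin A (Flna) held 587 and 720.1 CPM against 2661 and 2658 CPM (4.07-fold lower).

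Of 21 atrophy and autophagy genes, 10 were higher and 9 were lower. The muscle ubiquitin ligases Trim63 and Fbxo32 were 23.4-fold and 2.38-fold higher, the autophagy gene Map1lc3a was 7.59-fold higher, and the cargo receptor Sqstm1 was 4.04-fold lower. Of 20 tested quiescence and Notch genes, 9 were higher and 7 were lower. The ligand Dll1 held 21.9 and 22.7 CPM against 1.84 and 2.18 CPM (11.1-fold) and Jag1 was 3.18-fold lower. Id2, an inhibitor of the myogenic factors, was 3.56-fold and Cd34 3.68-fold lower.

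Of 25 tested chemokine, cytokine and acute phase genes, 15 were lower and 4 were higher, or 7 higher when only the 4 libraries were fitted. S100a8, a calcium-binding alarmin, held 5.45 and 3.82 CPM in DM3 and 189 and 149 CPM in DM2 (36.4-fold lower), and its partner S100a9 was at 0.338 CPM or less in all 4. Ptgs2 was 3.52-fold and Csf1 3.76-fold lower. Il6 was higher, at 22.2 and 20 CPM against 4.55 and 3.27 CPM (5.39-fold). Interferon response genes were near the share of all genes, with 5 of 18 tested higher and 4 lower.

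The cells were checked for markers of other types. The 12 adipocyte markers summed to 25.3 and 24 CPM in DM3 and 16.8 and 13.5 CPM in DM2. Cebpa alone held 24.5 and 22.8 CPM of this against 7.34 and 5.49 CPM. The defining Adipoq was at 0 in DM3 and at 0.339 and 0.156 CPM in DM2, and Lep, Pck1 and Ucp1 were at 0 in all 4. Of the 3 adipocyte markers tested, 1 was higher and 2 were lower. Osteoblast and chondrocyte markers summed to 121 and 132 CPM against 181 and 185 CPM (3 of 7 tested higher, 2 lower), with Ibsp and Acan at 0. Macrophage and leukocyte markers summed to 3.97 and 4.52 CPM against 6.44 and 7.04 CPM (1 tested, not passed), with Adgre1 and Tyrobp at 0. Endothelial markers summed to 1.56 and 1.27 CPM against 7.3 and 7.08 CPM (2 of 5 tested lower), with Tie1 and Cldn5 at 0. Epithelial markers summed to 0.719 and 0.452 CPM against 0.151 and 0.195 CPM (1 of 2 tested higher), with Epcam at 0. Neural markers summed to 5.2 and 4.93 CPM against 34.1 and 37.1 CPM (1 of 3 tested lower), of which Tubb3 held 4.14 and 3.86 CPM against 32.4 and 35.7 CPM, with Snap25 and Sox10 at 0. The part of these markers in the results was not tested.

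All genes that passed were also ranked by fold change, members of the lists such as Mybpc2, Heyl and Mmp13 included. Ranked genes had at least 10 CPM in the higher medium and no overlap between the media, a condition that 79.4% of all tested genes met without the level. After Txnip, the 15 most raised in DM3 included the antisense RNA Atcayos (179-fold), the protease Adamts16 (9.72 and 10.5 CPM against 0.0753 and 0.0778 CPM), the myosin binding protein Mybpc2, the secreted C1qtnf3 (302 and 277 CPM against 5.08 and 3.42 CPM, 67.9-fold), the antisense RNA C130080G10Rik, the junction protein Plekha7 and the integrin-binding Itgb1bp2 (243 and 210.2 CPM against 3.5 and 3.81 CPM, 61.9-fold). With 4 to 10 counts in both DM2 libraries together, the count ratio was 132 (51.2 to 486) for Adamts16, 108 (49.3 to 295) for Mybpc2, 68.6 (37.1 to 144) for C130080G10Rik and 65.7 (35.5 to 138) for Plekha7, with exact binomial 95% intervals that cover counting error only. Whether the counting used strand is not given in the sources used here, so reads of an antisense gene and its partner cannot be told apart. The Notch target Heyl was 58.6-fold (96.9-fold without replicate 2 of DM2) and the ADP-ribosyltransferase Art1 53.3-fold higher (80.8-fold without replicate 2 of DM2). Klhl41, Ankrd2, Casq2 and Gm7325, described above, were the rest of that group with Gm5537, a processed pseudogene that held 24.5 and 5.83 CPM in DM3 and 0 in DM2. It was at least 132-fold higher against the floor of 3 counts per library, and this bound was 50.8-fold or 214-fold when replicate 1 or replicate 2 of DM3, in that order, was left out. Reads of its parent gene could be assigned to it. It did not pass without replicate 1 of DM3, without replicate 1 or 2 of DM2 (adjusted p = 0.0645, 0.0655 and 0.065), or when only the 4 libraries were fitted (adjusted p = 0.231).

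The genes most lowered in DM3 were nearly silent there. Avil, an actin-binding protein of sensory neurons, held 0.55 and 0.616 CPM in DM3 and 269.9 and 279 CPM in DM2 (467-fold, adjusted p = 2.61e-10). The carbonic anhydrase Car6, known from saliva, held 1.65 and 1.64 CPM against 172 and 182 CPM (107-fold). The peptide hormone Apln was 64.8-fold lower. Tenm4 held 1.18 and 3.2 CPM against 174 and 169 CPM, 77.7-fold lower and 144-fold without replicate 2 of DM3.

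The remaining genes of that group held 1 to 12 counts in both DM3 libraries together, so their count ratios carry wide intervals of the same kind. Coagulation factor F5 had a ratio of 176 (80.6 to 481), the hormone Stc1 of 139 (72.9 to 304) and the trypsin Try5, of a family of near-identical copies and so uncertain, of 118 (67.6 to 229.8). With 3 counts or fewer in DM3, H2-M10.1 had a ratio of 1823 (504 to 15055), Gpr141 of 605 (108 to 23942), Pdcd1 of 278 (94.7 to 1349) and Taf7l of 268 (73.8 to 2216). Without the DM3 replicate that held the counts, the first 3 of these were at 0 there: H2-M10.1 and Gpr141 were then at least 615-fold and 102-fold lower (without replicate 1), and Pdcd1 at least 137-fold (without replicate 2). Without the other replicate, the ratios were 898 (248 to 7418) for H2-M10.1, 298 (53.3 to 11797) for Gpr141 and 141 (48 to 684) for Pdcd1. Mmp13 had a ratio of 129 (73.7 to 250.4), and was 62.8-fold lower without replicate 2 or at least 261-fold without replicate 1 of DM3, where the other library was at 0. Elmo1 had a ratio of 97.5 (47.1 to 243), Sspo of 84.8 (38.7 to 232) and Slc24a3 of 60.8 (32.9 to 127). Without replicate 2 of DM3, which left 1 or 2 counts, the ratios were 168 (46.4 to 1391) for Elmo1, 251 (44.8 to 9920.4) for Sspo and 149.8 (41.3 to 1239) for Slc24a3, and without replicate 1 Sspo was 50.5-fold and Slc24a3 38-fold lower.

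To see when the media parted, the difference at day 7 was compared with that at day 2 in the same model. At day 2, 2602 genes passed between DM3 and DM2 (16.3%), and the difference itself changed between the days for 6362 genes (39.8%). Of 10 genes named for this comparison, 8 passed. Without replicate 2 of DM3 at day 2 the difference changed for 5594 genes, and each of the 8 passed. That library stood apart from replicate 1, with 17779 genes detected against 20122. Processed pseudogenes took 0.837% of its counts against 2.84%. The day 2 calls were not repeated without that library, so a gene that did not pass at day 2 may still differ there. For Txnip the day 2 difference had the other sign and did not pass (log2 -0.38 ± 0.142, adjusted p = 0.0923), and Slc2a1 (0.21 ± 0.0917, adjusted p = 0.148) and Hspa5 (0.31 ± 0.134, adjusted p = 0.137) did not pass at day 2 either. Klhl41 was already 12.8-fold higher in DM3 at day 2, with 60.9 and 59.8 CPM against 5.21 and 4.24 CPM. Myog was 8.08-fold, Acta1 18.9-fold and Igf2 2.06-fold higher at day 2, and all 3 differences had grown by day 7. For Myh3 (log2 change 0.40 ± 0.254, adjusted p = 0.245) and Ckm (-0.11 ± 0.2, adjusted p = 0.737) no change of the difference was detected. Myh3 was 30.1-fold and Ckm 18.2-fold higher in DM3 at day 2.

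**Figure D5:**
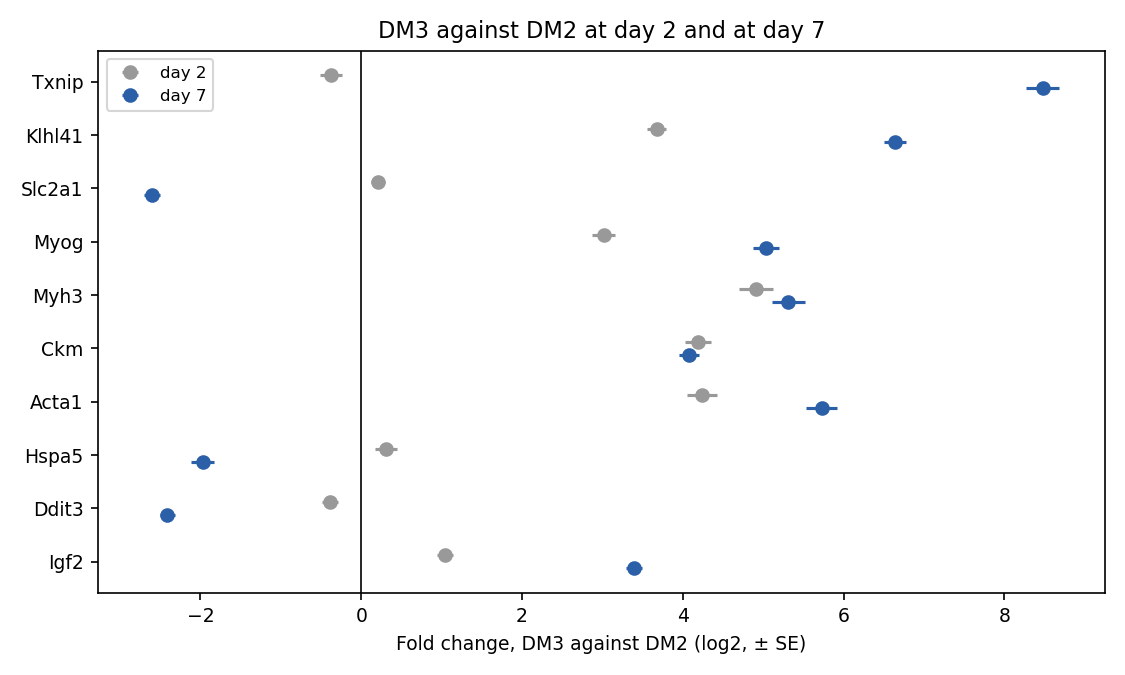
Fold change of DM3 against DM2 (log2, ± SE) at day 2 (grey) and day 7 (blue) for 10 genes. Txnip, Slc2a1 and Hspa5 lie near 0 at day 2 and far from it at day 7, while Myh3 and Ckm lie at about the same place on both days.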

How the data were processed

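The data were poly(A) RNA libraries, sequenced as single-end reads per the series' design text. Per the submitters' processing notes and design text, STAR 2.5.1b was the aligner, GRCm38.p5 the genome, Gencode vM12 the gene annotation and RSEM 1.2.31 the counting tool, and the authors deposited the resulting expected counts per gene in 1 table for all 14 libraries. RSEM shares out reads that match several genes, so paralogs and pseudogenes are uncertain.

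Expected counts were rounded to whole numbers. Genes were filtered by edgeR's filterByExpr over the 7 groups, which left 15973 of 49671. Libraries were scaled by TMM, and edgeR 4.0.16 (R 4.3.3) quasi-likelihood tests with robust dispersions were fitted to all 14 libraries at 1 mean per group, with 7 residual degrees of freedom. All adjusted p-values are Benjamini-Hochberg over the tested genes at a threshold of 0.05. SE was taken as the size of the log2 difference over the root of its F statistic. On simulated counts for 15669 genes with this design, the fit recovered 24, 54, 92 and 96% of 50 genes each changed by 1.5, 2, 4 and 8-fold, with 7 false calls. All other genes were simulated with no difference between the media at day 7, whereas 8420 genes passed in the data. The adjusted threshold was thus stricter in the simulation, and these shares do not carry over to the data. DESeq2 1.42.0 was run as an alternative.

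The contrast, its markers and the 40 gene and marker lists (796 symbols, all found) were chosen with earlier results of these data known, so list counts are descriptions. Genes were named as markers of the contrast, as list members, or as the 15 with the largest fold change in each direction among calls with at least 10 CPM in the higher medium and no overlap. The comparison of each medium with the other 12 libraries was added after the data were seen. Positions come from Gencode vM21 (15930 of 15973 tested genes found), and promoters, from 250 bases before to 50 after the start, from RefSeq on GRCm38.p6. Alternatives were library totals, DESeq2, no filter, a replicate block, only the 4 libraries compared, each replicate left out, and 2 sets added after seeing the data: no pseudogenes, mitochondrial genes or Gm42418, and each day 2 replicate left out for the comparison of days.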

Additional observations from a re-analysis of the deposited data

Results flagged for a closer look

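For 8 of the 10 genes compared between days, the difference between DM3 and DM2 at day 7 was not that at day 2, by the interaction test of edgeR's quasi-likelihood fit with Benjamini-Hochberg adjustment over all tested genes. On the log2 scale, day 7 minus day 2, the change of the difference was 8.85 for Txnip (adjusted p = 2.53e-09), 2.96 for Klhl41 (adjusted p = 1.33e-07), 2.02 for Myog (adjusted p = 7.72e-06), 1.49 for Acta1 (adjusted p = 0.00035) and 2.35 for Igf2 (adjusted p = 2.27e-07). It was -2.81 for Slc2a1 (adjusted p = 7.04e-08), -2.28 for Hspa5 (adjusted p = 2.87e-06) and -2.02 for Ddit3 (adjusted p = 4.72e-07). The first 5 genes rose in DM3 relative to DM2 between the days and the other 3 fell.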

How the results depend on the processing

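The count of genes that passed between DM3 and DM2 at day 7, 8420, stayed within 1.5 times its value under every alternative run, and no gene that passed changed sign. It was 8440 with library totals alone, 7940 with DESeq2, 8116 with no low-count filter and 9418 with only the 4 libraries fitted (4710 higher and 4708 lower). It ranged from 7127 to 7208 when 1 of the 4 libraries was left out, where the lone library was assumed to vary like the other groups. The count of genes whose difference changed between the days, 6362, was 6437, 5925 and 5931 under the first 3 of these and 5128 to 5528 without 1 of the 4 libraries. With alternatives chosen after seeing the data, it was 6795 without pseudogenes, mitochondrial genes and Gm42418, and 5513 to 7365 without 1 of the other day 2 libraries. Same-numbered libraries of DM3 and DM2 did not deviate together at day 7 (r = -0.0144 across 15973 genes). Over all 21 pairs of groups r ran from -0.629 to 0.518 and exceeded 0.1 in 2, growing cells with day 2 DM1 (0.518) and day 2 DM2 with day 7 DM1 (0.112), so the numbers were not taken as a pairing. A replicate block gave 8390 and 6298 calls, and with it Myh8 passed (adjusted p = 0.0412) and Asph did not (adjusted p = 0.0556). DESeq2 also called Eno1 (adjusted p = 0.0209), and with no filter neither Dars (adjusted p = 0.121) nor Asph (adjusted p = 0.0535) was called. With library totals alone Asph was not called (adjusted p = 0.0838). Differences near 1.5-fold were often missed on simulated counts (24% recovered), but far fewer genes differed there than in the data, so that share does not carry over. With 2 libraries a group, a gene that did not pass may still differ.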
